A study of Mus musculus with 5 samples.

Results

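Cyp27a1, Cyp7b1, Cyp39a1 and Cyp46a1 encode 4 cytochrome P450 enzymes that hydroxylate cholesterol or its oxysterols on the alternative route to bile acids. They were taken by name from a capture panel, and all 4 were on it, among 64 genes in all. Their level was followed in hepatocytes over a day of food deprivation and across the liver lobule, the repeating unit of liver between the portal vessels and the central vein. UMIs (unique molecular identifiers, which mark single captured RNA molecules) were counted per cell barcode by targeted single-cell RNA sequencing.

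The hepatocytes came from livers of male wild-type C57BL/6J mice on normal chow, and every group shared the same preparation. Training lasted 3 days, each with 16 h of fasting overnight and 8 h of daytime feeding. On the day itself all mice got chow together with water containing 20% sucrose. The group called 0 h was killed at clock hour 13 after 4 h of this feeding. The other groups lost food and sucrose water at that hour and were killed after 8 h (clock hour 21), 16 h (hour 5), 24 h (hour 13) and 30 h (hour 19). There was 1 library per time, 5 in all, and the sources used here do not say how many mice stand behind each. No difference between times therefore has a replicate check, no test was made, and every interval printed is a 95% interval of counting error alone. Time without food and clock hour cannot be told apart, except that the 0 h and 24 h libraries share their hour.

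Bile acids are made from cholesterol by 2 routes. In the classic route Cyp7a1 adds the 7-alpha hydroxyl group to cholesterol itself and sets the rate. In the alternative route the side chain is hydroxylated first, chiefly by the mitochondrial sterol 27-hydroxylase Cyp27a1, and the resulting oxysterols receive their 7-alpha hydroxyl group from Cyp7b1 or Cyp39a1. Cyp39a1 is known for its preference for 24-hydroxycholesterol, the product of the cholesterol 24-hydroxylase Cyp46a1, which is best known from neurons of the brain. In liver, Cyp7a1 is a known pericentral gene, expressed next to the central vein.

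The 4 genes lie on 4 chromosomes (GRCm38, GENCODE M21). Cyp27a1 is on chromosome 1 from 74713574 to 74737892 on the plus strand, with 9 exons in the transcript used. Cyp7b1 is on chromosome 3 from 18071950 to 18243338 on the minus strand, with 6 exons. Cyp39a1 is on chromosome 17 from 43667425 to 43751431 on the plus strand, with 12 exons. Cyp46a1 is on chromosome 12 from 108334381 to 108362234 on the plus strand, with 15 exons. No exon of any of them overlaps an exon of another annotated gene on either strand.

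All 4 enzymes share the P450 fold, in which a cysteine holds the haem iron. The 30 coding bases around that cysteine are compared below. They were located by a shared motif, so they do not measure how far the whole genes have diverged. The 7-alpha hydroxylases are compared with each other later, which needs reads that do not pass between them. On that point the longest run shared by whole transcripts, given after the sequences, is the value to read. The cysteine codon is in capitals, each stretch is coding exon read 5′ to 3′ on the gene's own strand, and the classic 7-alpha hydroxylase Cyp7a1 is set beside them.
Cyp27a1 (chr1:74737320-74737349, plus strand, exon 8): ttcggctatggggttcggtctTGCctgggt
Cyp7b1 (chr3:18072634-18072663, minus strand, exon 6): tttggactcggaacaagcaaaTGTccaggg
Cyp39a1 (chr17:43731982-43732011, plus strand, exon 10): tttggaggcgggaagttccagTGTcctgga
Cyp46a1 (chr12:108361218-108361247, plus strand, exon 14): ttttccctgggccaccggtccTGCatcggc
Cyp7a1 (chr4:6268386-6268415, minus strand, exon 6): tttggatcaggagctacaataTGTcctgga
Cyp7b1 matched Cyp7a1 at 20 of these 30 bases and Cyp39a1 at 19, while Cyp39a1 matched Cyp7a1 at 17. Cyp27a1 and Cyp46a1 matched each other at 16, and all other pairs at 9 to 14. All 3 of the 7-alpha hydroxylases carry the codon TGT, and both side-chain hydroxylases carry TGC. Over the whole transcripts, the longest run of identical bases in any pair was 15, shared by Cyp7b1 and Cyp7a1.

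The libraries held 47473 barcodes in all, 7208 to 12153 each, with 3979629 to 11288725 UMIs per library. The median UMIs per barcode ranged from 651 to 1202.5 outside the 8 h library, which stood apart at 219 and had 47.8% of its barcodes below 200 UMIs. Alb (albumin), the defining hepatocyte gene of the panel, took 69.4% to 71.8% of the UMIs of every library. Of 15 markers listed for endothelial, immune, mesenchymal and bile duct cells, 6 were on the panel, and none of these was at 0 in any library. Between 0.905% and 1.12% of each library's barcode sequences also occurred in another library. Levels are given as CPM, the UMIs of a gene per 1000000 UMIs of the panel. The summed level of those 6 markers was 76.2 CPM at 0 h, 220 at 8 h and 29.7 to 43.2 in the later libraries. Because capture baits differ between genes, a CPM value is read between libraries and zones for 1 gene, not between genes.

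Cyp27a1 was lowest in the fed library and higher in each fasted one. It stood at 1358 CPM at 0 h (10254 UMIs, interval 1332 to 1385) and then at 2138, 1622, 1603 and 2150 CPM in the libraries of 8, 16, 24 and 30 h. The values form 3 steps, since neither the 8 h and 30 h libraries nor the 16 h and 24 h libraries differed beyond counting error. On the log2 CPM scale the difference from 0 h was 0.65 (0.61 to 0.70) after 8 h without food, 0.26 after 16 h, 0.24 after 24 h and 0.66 (0.63 to 0.70) after 30 h. The highest library was 1.58-fold above the lowest, a narrow span for this panel: of 52 genes with enough UMIs in every library, only 8 had a smaller one.

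Cyp7b1 went up and down in alternation from library to library. It stood at 1500 CPM at 0 h (11323 UMIs) and then at 1040, 1916, 783 and 1054 CPM in the libraries of 8, 16, 24 and 30 h. The order from high to low was 16 h, 0 h, 30 h, 8 h and 24 h, and of the neighbours in that order only 30 h and 8 h did not differ beyond counting error. The log2 difference from 0 h was -0.53 after 8 h without food, 0.35 (0.32 to 0.39) after 16 h, -0.94 (-0.98 to -0.90) after 24 h and -0.51 after 30 h. From 16 h to 24 h it dropped by 1.29 on the log2 scale, the largest step between consecutive libraries for this gene. At the shared clock hour 13 its level was 1.92-fold lower after 24 h without food than at 0 h.

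Cyp39a1, the other oxysterol 7-alpha hydroxylase, was highest late. It stood at 536 CPM at 0 h (4049 UMIs) and then at 588, 464, 727 and 845 CPM in the libraries of 8, 16, 24 and 30 h, and all neighbours in the order of these levels differed beyond counting error. The log2 difference from 0 h was 0.13 (0.06 to 0.21) after 8 h without food, -0.21 (-0.28 to -0.14) after 16 h, 0.44 after 24 h and 0.66 (0.60 to 0.71) after 30 h. In all 4 fasted libraries, which share the 0 h library as their base, this difference per panel UMI had the opposite sign to that of Cyp7b1. Per barcode both genes were lower than at 0 h in the 8 h and 16 h libraries, so the opposite signs held in 2 of 4.

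Cyp46a1 was sparse in these hepatocytes and highest at 8 h. It gave 395, 429, 204, 396 and 404 UMIs in the libraries of 0, 8, 16, 24 and 30 h, with at most 5 in 1 barcode. These counts correspond to 52.3 (47.3 to 57.7), 108 (97.8 to 118), 33.1, 38.0 and 35.8 CPM. Among the last 3 libraries, neighbours in the order of levels did not differ beyond counting error, while 0 h was above all of them. The log2 difference from 0 h was 1.04 (0.84 to 1.24) at 8 h and -0.66, -0.46 and -0.55 at 16, 24 and 30 h. The markers of other cell types were also highest at 8 h, as given above. Among barcodes with no UMI of those markers, Cyp46a1 stood at 51.8 CPM at 0 h and 108 at 8 h, a log2 difference of 1.07. With only barcodes of 300 or more UMIs kept in both libraries, that difference was 0.98. The marker filter left out only 4.06% of barcodes at 0 h and 3.69% at 8 h, and shallow barcodes of any cell type can pass it. The part of other cell types in the 8 h level was not tested.

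**Figure D1:**
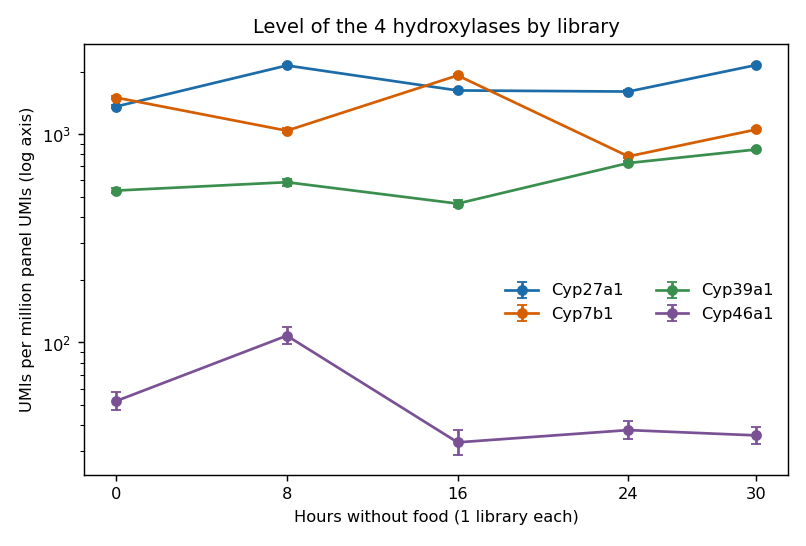
CPM of each of the 4 genes (log axis) against hours without food, 1 library per point, with 95% counting intervals. Each line is read along time and not against the other genes. Cyp7b1 (orange) is highest at 16 h and lowest at 24 h, Cyp39a1 (green) is lowest at 16 h and highest at 30 h, and Cyp46a1 (purple) peaks at 8 h.

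The spans of the 4 genes can be set against the panel, where the median log2 span from lowest to highest library was 1.20. Those of Cyp27a1 (0.66) and Cyp39a1 (0.86) were below it, and those of Cyp7b1 (1.29) and Cyp46a1 (1.70) above it. With a 2-fold difference from 0 h as the mark, 1 of the 4 genes (Cyp46a1) passed upward at 8 h, where 17.9% of 56 panel genes did, and none passed downward, where 12.5% did. None of the 4 passed in either direction at 16, 24 or 30 h. The panel shares there were 10.7%, 8.93% and 16.1% upward and 28.6%, 23.2% and 26.8% downward. The median log2 difference of the 4 genes was 0.39, 0.02, -0.11 and 0.07 at 8, 16, 24 and 30 h, beside panel medians of 0.05, -0.15, -0.12 and -0.07. All of this is per panel UMI. Counted per barcode, the shallow 8 h library was lower than 0 h for every one of the 4, with log2 differences of -1.02 for Cyp27a1, -2.21 for Cyp7b1, -1.54 for Cyp39a1 and -0.63 for Cyp46a1. At 16 h the per-barcode difference was -0.43 for Cyp27a1 and -0.33 for Cyp7b1, against the direction per panel UMI, and -0.89 for Cyp39a1.

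Position along the lobule was read from 2 other genes of the panel. Cyp2e1 is a known pericentral gene and Cyp2f2 a known periportal one, and in each library barcodes were ranked by the ratio of their UMIs and divided into 5 equal bins, from bin 1 at the periportal end to bin 5 at the pericentral end. Genes outside the ranking followed the axis in all 5 libraries. The log2 ratio of CPM in bin 5 to that in bin 1 was 1.62 to 3.76 for Glul and 3.86 to 4.90 for Gulo, both pericentral markers, and -1.64 to -0.93 for Hsd17b13, a periportal marker. Bins with the same number do not hold the same cells in every library: the ratio of Cyp2e1 to Cyp2f2 UMIs in bin 4 was 0.291, 5.23, 1.27, 5.46 and 1.98 in time order. At the ends it was 0.0185 to 0.314 in bin 1 and 7.67 to 44.5 in bin 5, in each case with the 0 h library lowest. Depth also moved along the axis, with a median of 1224 UMIs per barcode in bin 1 and 603 in bin 5 at 0 h. At 8 h the medians in bins 1 to 5 were 587, 320, 117, 116.5 and 250, so the middle bins held the shallowest barcodes. In bin 3 at 8 h, 69 barcodes had no UMI of either ranking gene. The share of Alb was 72.6% in bin 1 and 53.2% in bin 5 at 0 h, and likewise lower in bin 5 in the other libraries. A lower share of Alb lifts the CPM of the other genes in bin 5, so each zone ratio is also given with Alb, Cyp2e1 and Cyp2f2 left out of the denominator.

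Cyp27a1 was pericentral in all 5 libraries. At 0 h its level in bins 1 to 5 was 983, 1067, 1062, 1242 and 3254 CPM, flat over most of the axis and 2.62-fold higher in bin 5 than in bin 4. At 16 h it was 1021, 1025, 1135, 1859 and 4162, and at 30 h 1505, 1536, 1637, 2382 and 4731. The slope was more gradual at 8 h, at 1337, 1738, 2420, 2723 and 3588. The part of the low depth of bins 3 and 4 in this 8 h slope was not tested. At 24 h the level was 965, 1112, 1267, 2227 and 3465. The log2 ratio of bin 5 to bin 1 was 1.73 (1.64 to 1.81), 1.42, 2.03 (1.94 to 2.12), 1.84 and 1.65 at 0, 8, 16, 24 and 30 h. Without Alb, Cyp2e1 and Cyp2f2 in the denominator these ratios were 1.10, 0.71, 1.26, 1.13 and 1.15.

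Cyp7b1 followed the same form with a smaller contrast. Its level in bins 1 to 5 was 1294, 1264, 1251, 1355 and 2937 CPM at 0 h and 1340, 1299, 1270, 2093 and 4763 at 16 h. At 24 h, its lowest library, it was 527, 542, 637, 963 and 1688. The log2 ratio of bin 5 to bin 1 was 1.18 (1.10 to 1.26), 1.22, 1.83 (1.75 to 1.91), 1.68 and 1.34 at 0, 8, 16, 24 and 30 h, and 0.56, 0.51, 1.06, 0.97 and 0.84 with the reduced denominator. In every library the ratio of Cyp27a1 to Cyp7b1 UMIs was higher in bin 5 than in bin 1, by 0.55 (0.43 to 0.66) on the log2 scale at 0 h and by 0.17 to 0.31 in the fasted libraries. Those 2 counts need no denominator.

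Cyp39a1 ran the other way. Its level in bins 1 to 5 was 582, 557, 558, 552 and 357 CPM at 0 h. After 16 h without food it was 448, 525, 495, 445 and 363, and after 30 h 898, 927, 930, 813 and 531. Bins 1 and 3 did not differ beyond counting error in any library, and the level was lowest in bin 5 in every library but that of 8 h, where bin 4 (442) and bin 5 (469) did not differ beyond counting error. The log2 ratio of bin 5 to bin 1 was -0.71 (-0.88 to -0.53), -0.51, -0.30 (-0.50 to -0.11), -0.39 and -0.76 at 0, 8, 16, 24 and 30 h. With the reduced denominator it was -1.33, -1.22, -1.07, -1.10 and -1.26. In 10 equal groups of the barcodes at 0 h, Cyp39a1 was at 595 CPM in the most periportal and 272 (228 to 322) in the most pericentral, while Cyp27a1 was at 959 and 4165 and Cyp7b1 at 1351 and 3677.

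**Figure D2:**
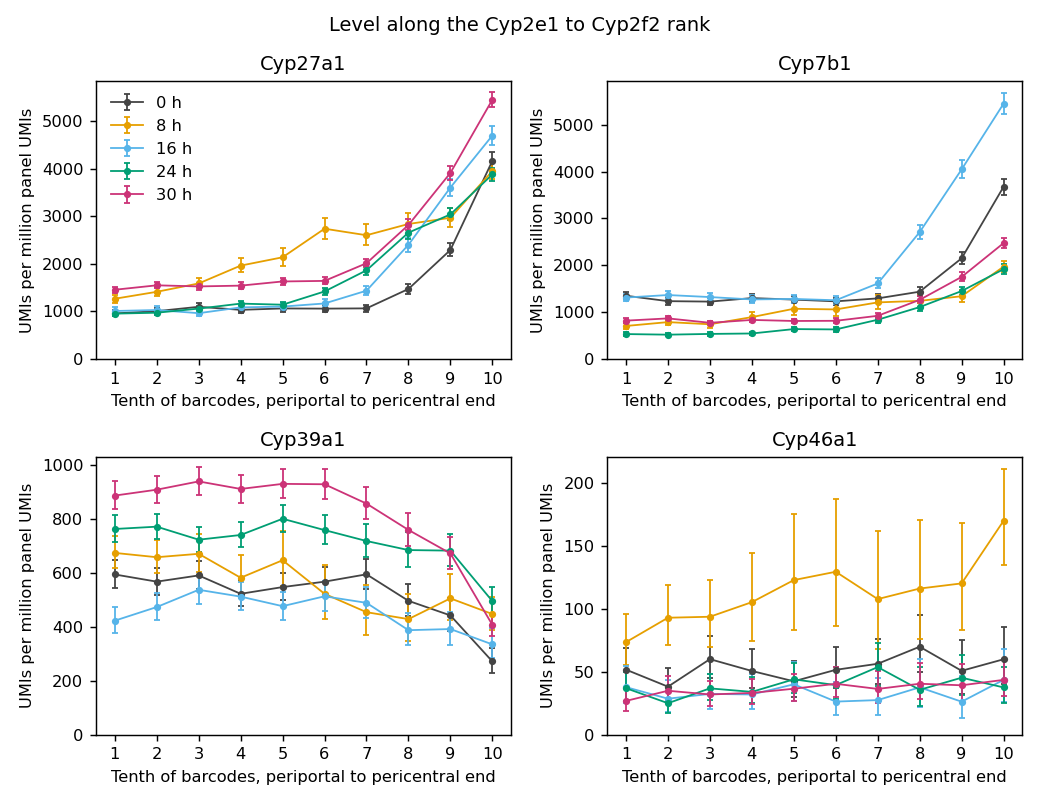
CPM of each gene in 10 equal groups of barcodes from the periportal (1) to the pericentral (10) end, 1 line per library, with 95% counting intervals and a separate vertical scale per gene. Cyp27a1 and Cyp7b1 climb over the last groups, Cyp39a1 declines there (595 to 272 CPM from group 1 to 10 at 0 h), and the intervals of Cyp46a1 overlap along most of the axis.

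The 3 genes can be read against the panel. In CPM, Cyp27a1 and Cyp7b1 were higher at the pericentral end in 5 of 5 libraries, and so were most panel genes: 86.3%, 86%, 85.7%, 83.7% and 78% at 0, 8, 16, 24 and 30 h. The direction alone therefore says little. Both were also past 2-fold in all 5, where 21.6%, 26%, 34.7%, 28.6% and 20% of the panel were. Cyp27a1 ranked the fifth or the sixth highest of 49 to 51 genes in each library, and Cyp7b1 between the eighth and the tenth. Cyp39a1 was lower at the pericentral end in 5 of 5, where 13.7%, 14%, 14.3%, 16.3% and 22% of the panel were, and ranked between 2 and 4 from the lowest. With the reduced denominator the panel was nearly balanced, with medians of -0.04 to 0.13 on the log2 scale. On that scale Cyp39a1 was past 2-fold lower in all 5 libraries, where 10%, 6.12%, 6.25%, 6.25% and 6.12% of genes were. Cyp27a1 was then past 2-fold higher in every library but that of 8 h, where 12%, 6.12%, 16.7%, 12.5% and 12.2% of genes were. Cyp7b1 was past it at 16 h alone. Each library was ranked on its own, so counts without the 8 h library (4 of 4 for each direction) repeat these values and are no further check.

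Cyp46a1 had too few UMIs for a zone profile outside the 8 h library. Its 30 to 99 UMIs per bin gave log2 ratios of bin 5 to bin 1 of 0.30 (-0.23 to 0.81), 0.08, 0.43 and 0.42 at 0, 16, 24 and 30 h, each with an interval that included 0. At 8 h the ratio was 0.87 (0.49 to 1.26), from 82.8 CPM in bin 1 and 152 in bin 5. With the reduced denominator that 8 h ratio was 0.16 (-0.22 to 0.54), and without Alb alone the ratio was below 0 in the other 4 libraries. No zone direction of Cyp46a1 can be read from these counts.

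**Figure D3:**
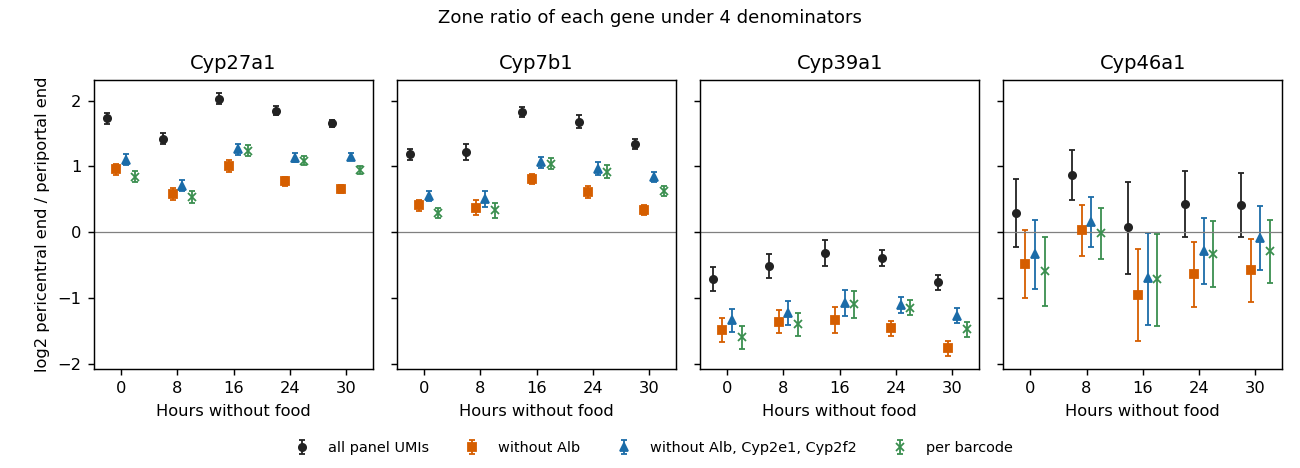
Log2 ratio of the pericentral end (bin 5) to the periportal end (bin 1) for each gene and library under 4 denominators, with 95% counting intervals. Points of 1 library are spread sideways for legibility. Cyp27a1 and Cyp7b1 lie above 0 and Cyp39a1 below 0 under every denominator, while Cyp46a1 changes side.

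Free RNA and mixed droplets can carry UMIs of a zoned gene into barcodes of the other zone. Cyp7a1, ranked by the same index, was 27.5-fold, 23.7-fold, 63.5-fold, 18.5-fold and 40.5-fold higher in bin 5 than in bin 1 at 0, 8, 16, 24 and 30 h. The contrasts of Cyp27a1 (2.68-fold to 4.08-fold) and Cyp7b1 (2.27-fold to 3.55-fold) were far smaller than those of Cyp7a1 in each library. Of the pericentral markers, Gulo was 14.5-fold to 29.9-fold higher in bin 5. Glul was 3.08-fold, 4.74-fold, 13.6-fold, 9.04-fold and 3.07-fold higher in time order. At 0 h and 30 h Glul was thus below Cyp27a1, which was at 3.31-fold and 3.14-fold. The part of free RNA in the periportal levels of Cyp27a1 and Cyp7b1 was not tested.

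The ratio of the oxysterol 7-alpha hydroxylases to each other needs no denominator. Thinning still moved it: with barcodes thinned to 200 UMIs its log2 value was 1.75 at 0 h and 0.34 at 24 h, against 1.48 and 0.11 unthinned. With only barcodes of 300 or more UMIs, unthinned, it was 1.47 and 0.10. Thinning also gives every barcode the same weight, including the shallower ones of the pericentral end. Which of these moved the value was not tested. The ratio compares libraries and zones, not the amounts of the enzymes. Cyp39a1 made up 26.3% of the UMIs of Cyp7b1 and Cyp39a1 together at 0 h (25.6% to 27.0%, Clopper-Pearson), and 36.1%, 19.5%, 48.2% and 44.5% in the 4 fasted libraries in time order. The ratio of Cyp7b1 to Cyp39a1 UMIs was thus 2.80, 1.77, 4.13, 1.08 and 1.25 at 0, 8, 16, 24 and 30 h. Its log2 difference from 0 h was -0.66 (-0.75 to -0.57) after 8 h without food, 0.56 (0.48 to 0.64) after 16 h, -1.38 (-1.45 to -1.31) after 24 h and -1.16 (-1.23 to -1.10) after 30 h. The balance was therefore most toward Cyp7b1 at 16 h and most toward Cyp39a1 at 24 h, and it differed between 0 h and 24 h at the same clock hour.

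Along the lobule the balance shifted toward Cyp7b1 at the pericentral end in every library. The share of Cyp39a1 was 31.0% in bin 1 and 10.8% in bin 5 at 0 h. In the fasted libraries, in time order, it was 47.2%, 25.1%, 59.3% and 51.5% in bin 1 and 21.3%, 7.09%, 25.8% and 19.9% in bin 5. At 24 h bin 1 rested on 1974 UMIs of Cyp39a1 and 1355 of Cyp7b1, and bin 5 on 894 and 2566. From bin 1 to bin 5 the ratio of Cyp7b1 to Cyp39a1 went up 3.70-fold, 3.31-fold, 4.39-fold, 4.18-fold and 4.28-fold in the libraries of 0, 8, 16, 24 and 30 h. On the log2 scale these are 1.89 (1.70 to 2.08), 1.73 (1.52 to 1.94), 2.13 (1.92 to 2.34), 2.06 (1.92 to 2.21) and 2.10 (1.96 to 2.23), and all pairs of these intervals overlap except those of 8 h and 30 h. The size depends on the axis: with 3 bins it was 1.27 at 0 h and 1.85 at 16 h. For Cyp27a1 against Cyp39a1 the same contrast was 5.40-fold, 3.82-fold, 5.03-fold, 4.69-fold and 5.31-fold.

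**Figure D4:**
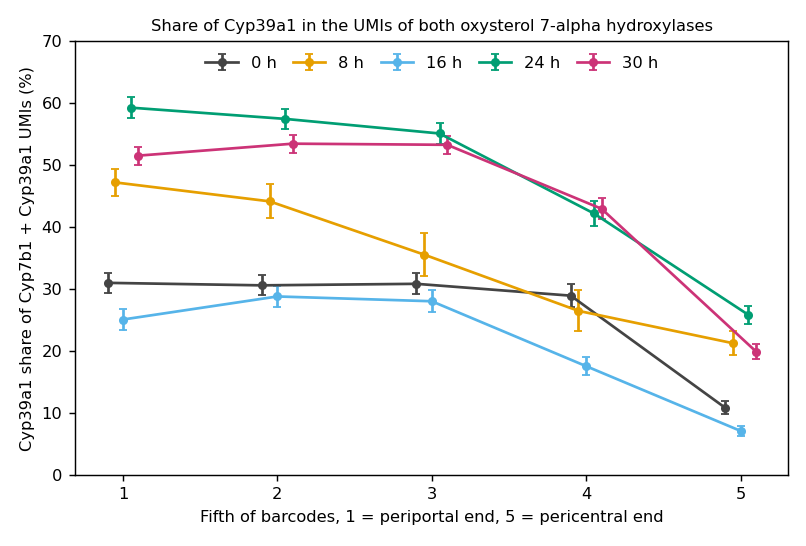
Share of Cyp39a1 in the UMIs of Cyp7b1 and Cyp39a1 together (vertical axis, percent) in 5 bins of barcodes from the periportal to the pericentral end, 1 line per library, with 95% Clopper-Pearson intervals. Every line is lower in bin 5 than in bin 1 (31.0% to 10.8% at 0 h), and the 24 h and 30 h lines lie highest in bins 1 to 4.

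For Cyp7b1 the difference between fasted and fed libraries was not alike at both ends of the lobule at 16 h and 24 h. At 16 h its log2 difference from 0 h was 0.05 (-0.04 to 0.14) in bin 1, 0.04 in bin 2 and 0.02 in bin 3, but 0.63 in bin 4 and 0.70 (0.63 to 0.77) in bin 5. The difference in bin 5 exceeded that in bin 1 by 0.65 (0.54 to 0.76). The ratio of Cyp2e1 to Cyp2f2 UMIs in bin 5 was 25.2 at 16 h and 7.67 at 0 h, so these bins were not alike in the index itself. At 24 h the difference was -1.30 (-1.39 to -1.20) in bin 1 and -0.80 (-0.88 to -0.72) in bin 5. In CPM the low level was thus more marked at the periportal end, by 0.50 (0.37 to 0.62). The index in bin 1 was 0.314 at 24 h and 0.0185 at 0 h. The size depended on the setting. It ranged from 0.20 (without Alb) to 0.65 (3 bins) at 24 h. At 16 h it ranged from 0.40 (without Alb) to 0.92 (ranked by Glul and Gulo to Hsd17b13). At 8 h both ends were lower by nearly the same amount, -0.80 and -0.76. At 30 h the difference from 0 h was -0.62 in bin 1 and -0.46 in bin 5. The bin 5 minus bin 1 difference at 30 h was 0.16 (0.05 to 0.27) in CPM and -0.065 without Alb.

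Cyp27a1 differed by bin as well. At 8 h its difference from 0 h was 0.44 in bin 1, 1.19 and 1.13 in bins 3 and 4, and 0.14 in bin 5. At 24 h it was 0.84 in bin 4 and 0.09 (0.03 to 0.15) in bin 5, where the level was near that of 0 h. At 30 h all bins were higher than at 0 h, by 0.53 to 0.94. The ratio of Cyp2e1 to Cyp2f2 differed between libraries in every bin, and bins 3 and 4 were the shallowest at 8 h, as given above. The part of either in these values was not tested.

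Cyp39a1 was higher than at 0 h in every bin at 24 h, by 0.35 to 0.72, and at 30 h, by 0.56 to 0.74. At 16 h its differences in bins 1 to 4 were -0.37 (-0.52 to -0.23), -0.09, -0.17 and -0.31 (-0.48 to -0.14). In bin 5 it was near its 0 h level, at 0.03 (-0.20 to 0.25), so no steady trend ran along the axis. The bin 5 minus bin 1 difference was 0.40 (0.14 to 0.66) in CPM, but 0.043 with zones ranked by Glul and Gulo to Hsd17b13. Cyp46a1 was higher than at 0 h in all 5 bins at 8 h, by 0.83 to 1.45, with intervals that left out 0 in each.

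**Figure D5:**
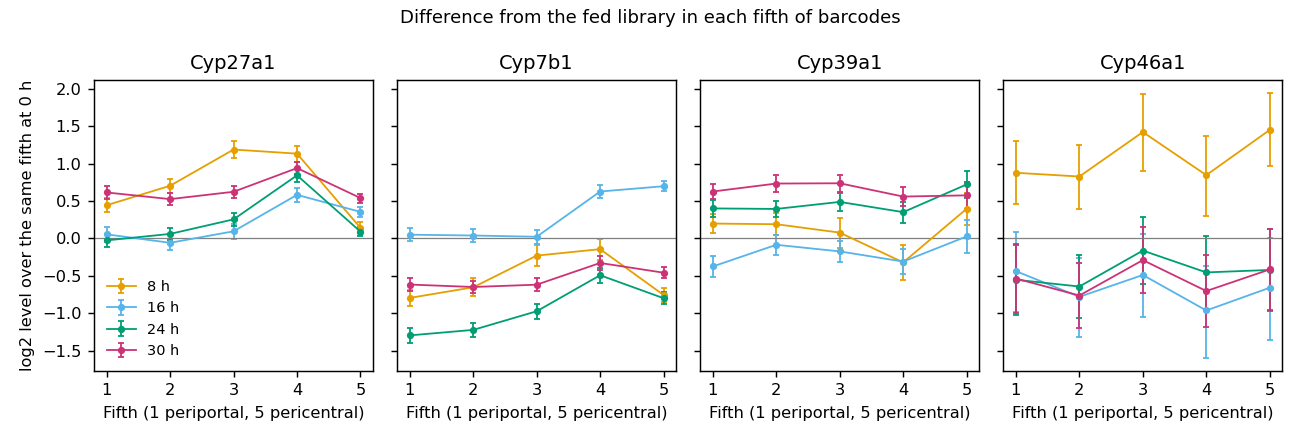
Log2 ratio of CPM to the same bin at 0 h for each gene, in 5 bins from the periportal (1) to the pericentral (5) end, 1 line per fasted library, with 95% counting intervals. The 16 h line of Cyp7b1 lies near 0 in bins 1 to 3 and at 0.63 and 0.70 in bins 4 and 5, and its 24 h line is lowest in bin 1.

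Shares of barcodes with at least 1 UMI were compared at equal depth. Each barcode was thinned to 200 UMIs, and shallower ones were left out, 52, 5807, 522, 4 and 26 of them in time order. Cyp27a1 was then found in 24.4%, 33.6%, 28.4%, 29.3% and 35.9% of barcodes at 0, 8, 16, 24 and 30 h, beside 67.4%, 43.1%, 58.3%, 76.9% and 83.0% unthinned. Cyp7b1 was found in 27.3%, 18.2%, 31.3%, 15.7% and 20.1% after thinning, beside 70.6%, 25.1%, 61.9%, 54.6% and 62.3% before. For Cyp39a1 the thinned shares were 9.61%, 11.1%, 8.72%, 13.0% and 14.9%, and the unthinned ones 38.2%, 15.8%, 23.8%, 52.0% and 54.8%. Thinned to 100 UMIs, Cyp39a1 was in 5.19% of barcodes at 0 h and 4.99% at 8 h, the reverse of the order at 200, so no order of those libraries is read from its shares. For Cyp46a1 they were 0.950%, 2.27%, 0.671%, 0.713% and 0.646% after thinning and 4.99%, 3.29%, 2.10%, 4.23% and 3.85% before.

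Barcodes with 3 or more UMIs of other cell types give a background for these shares, although they also hold Alb. At 0 h there were 25 of them deep enough (median 277 UMIs, against 1037.5 for all). After thinning, 16% (4.54% to 36.1%) had a UMI of Cyp27a1, 24% (9.36% to 45.1%) of Cyp7b1 and 20% (6.83% to 40.7%) of Cyp39a1. None of the 25 had a UMI of Cyp46a1, which allows a share of up to 12% by the limit of 3 counts and 13.7% by Clopper-Pearson. These intervals include the shares over all barcodes, so the shares are not read as shares of cells that express a gene.

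Genes with the most similar profile were sought among the panel by the root mean square difference of centred log2 CPM values. Over the 5 libraries, Cyp39a1 was nearest to Akr1d1 (0.13), a reductase of bile acid synthesis, and Dgat1 (0.14), an enzyme of triglyceride synthesis, where the median over 51 genes was 0.51. Cyp27a1 was nearest to Ywhaz (0.25) and Akr1d1 (0.25), beside a median of 0.46. Cyp7b1 was nearest to Cyp2f2 (0.30) and Ywhaz (0.39), beside 0.65, and Cyp46a1 to Hamp2 (0.43) and S1pr2 (0.44), beside 0.78. Over the 25 values of 5 libraries by 5 bins, Cyp39a1 was nearest to Alb (0.32) and Igf1 (0.47), Cyp27a1 to Nr1h3 (0.44), and Cyp7b1 to Ywhaz (0.49) and Nr1h3 (0.52). Exons of Nr1h3 overlap those of Gm13783 on the same strand, and their reads may not be separable. All these values share the same libraries and denominators, and they describe likeness only.

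The panel held 11 of 26 other genes listed for bile acid synthesis, conjugation and signalling, and 10 of them had enough UMIs to compare. Past 2-fold higher than at 0 h were 1 of the 10 at 8 h (Hsd3b7), 2 at 16 h (Hsd3b7 and Nr0b2), 1 at 24 h (Cyp7a1) and 2 at 30 h (Cyp8b1 and Nr0b2). Past 2-fold lower were Cyp7a1 at 16 h and Cyp2c70 at 30 h. Of 56 panel genes, 17.9%, 10.7%, 8.93% and 16.1% were past 2-fold higher at 8, 16, 24 and 30 h. Past 2-fold lower were 12.5%, 28.6%, 23.2% and 26.8%, so these counts do not set the bile acid genes apart from the panel. Cyp7a1, the first enzyme of the classic route, stood at 698, 1173, 247, 1642 and 645 CPM at 0, 8, 16, 24 and 30 h. In CPM its lowest library was thus the one in which Cyp7b1 was highest, and its highest the one in which Cyp7b1 was lowest. Counted per barcode this did not hold. Cyp7b1 was then highest at 0 h (1.57 UMIs per barcode) and lowest at 8 h (0.34). Cyp7a1 was still lowest at 16 h and highest at 24 h. Hsd3b7, which acts on the 7-alpha hydroxylated products of both routes, stood at 1471, 3968, 5084, 1705 and 2647 CPM, though its exons overlap those of Gm49388 on the same strand and reads of the pair may not be separable. Cyp8b1, which adds the 12-alpha hydroxyl group, stood at 2543, 4878, 1994, 2863 and 6542 CPM. The median log2 difference of the 10 genes from 0 h was 0.48, 0.05, 0.11 and 0.06 at 8, 16, 24 and 30 h. The panel medians were 0.05, -0.15, -0.12 and -0.07.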

How the data were processed

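Hepatocytes were run on the 10x Genomics Chromium 3' platform, version 3, and each library was enriched for a gene panel by hybrid capture, per the labels' protocols. The authors deposited raw UMI counts of 64 genes by 47473 barcodes, and the matrix header names Cell Ranger 6.0.1, with mm10 as build per the submitters' processing notes. A deposited table gave each barcode's library, and none lacked one. The sources used here do not give how barcodes were called as cells. All barcodes were used. No doublet caller was run, since the panel is small, and leaving out the top 5% of barcodes by UMIs was tried in its place.

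Counts were summed per library or bin and divided by panel UMIs. The rank index was (Cyp2e1 + 1)/(Cyp2f2 + 1), with ties broken at random (seed 1). Intervals are 95%: exact Poisson for CPM, exact conditional binomial for a log2 ratio, Clopper-Pearson for a share, and normal for a difference of log2 ratios. They cover counting error only. A gene was compared with 100 or more UMIs in both libraries or bins together. Counts of 44 genes were simulated, with 20 changed 4-fold between the zone ends. Over the 5 libraries 100 of 100 changed values and 0 of 120 unchanged ones were past 2-fold, and 93.2% of intervals held the true ratio. The simulated counts were Poisson draws on the real depths and fixed bins, without free RNA, ranking error or further spread. They check the calculation, not the zone ratios of the real cells.

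Alternatives were other denominators and scalings, other numbers of bins, another zone index (Glul and Gulo to Hsd17b13), barcode filters and thinning. Filters at 300 UMIs and on other cell types' markers, and counts without the 8 h library, were chosen after seeing the data. The 4 genes and all lists were chosen with earlier results of these data known. Genes named besides the 4 were the panel's bile acid genes, the nearest 2 genes by profile, and checks of the zone axis; 1 of the nearest genes is not reported here. All 64 gene identifiers were found in GENCODE M21, and sequences came from its transcripts. Python 3.11.15, numpy 2.4.6, SciPy 1.17.1 and matplotlib 3.10.9 were used.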

Additional observations from a re-analysis of the deposited data

How the results depend on the processing

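No paired analysis was possible because each time had 1 library and no replicate number was given. Leaving out each replicate in turn does not apply to 1 library per time.

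The denominator mattered most. Counted per barcode, 5 differences from 0 h changed direction: Cyp27a1 at 8 h (-1.02) and 16 h (-0.43), Cyp7b1 at 16 h (-0.33), Cyp39a1 at 8 h (-1.54) and Cyp46a1 at 8 h (-0.63). The number of panel genes past 2-fold at 8 h was then 42, against 17 per panel UMI. The zone ratio of Cyp46a1 at 8 h was -0.012 per barcode. The number of libraries with Cyp46a1 higher at the pericentral end was 5 in CPM, 1 without Alb, 1 without Alb, Cyp2e1 and Cyp2f2, 0 per barcode and 3 after thinning. The bin 5 minus bin 1 difference in the change of Cyp27a1 at 24 h was -0.18 without Alb and -0.088 after thinning, and that of Cyp7b1 at 30 h was -0.065 without Alb, against 0.12 and 0.16 in CPM. The cause was not tested. Zone ratios of Cyp27a1, Cyp7b1 and Cyp39a1 kept their direction in every library under all 12 alternatives run.

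The log2 ratio of Cyp7b1 to Cyp39a1 kept its sign, and 9 of 20 alternative values by library and 10 of 30 of its bin 5 minus bin 1 difference left the counting interval. After thinning it was 1.75, 2.25, 0.34 and 0.53 at 0, 16, 24 and 30 h. At 8 h it was 0.73 with 200 or more UMIs, 0.66 with 300 or more and 0.90 without the top 5% of barcodes. It was 1.96 at 16 h with 300 or more UMIs and 0.16 at 24 h without the top 5%. Its bin 5 minus bin 1 difference with 3 bins was 1.27, 1.85, 1.71 and 1.63 at 0, 16, 24 and 30 h. Ranked by Glul and Gulo to Hsd17b13 it was 1.38, 1.79 and 1.94 at 0, 24 and 30 h, and after thinning 1.96, 2.38 and 2.29 at 8, 16 and 30 h. Depth limited Cyp46a1, and the 8 h library for all 4 genes.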

Other observations

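The other bile acid synthesis genes of the panel also had zone profiles. With Alb, Cyp2e1 and Cyp2f2 left out of the denominator, the log2 ratio of the pericentral to the periportal end for Cyp7a1 was 4.16, 3.85, 5.22, 3.50 and 4.83 at 0, 8, 16, 24 and 30 h. Hsd3b7, which follows the 7-alpha hydroxylases, was at 1.30, 0.59, 1.19, 1.31 and 1.18. Cyp8b1 was at 0.13, 0.49, 1.30, 0.99 and 0.73. Cyp2c70, a mouse enzyme of muricholic acid synthesis, was at 0.65, 0.48, 0.66, 0.37 and 0.49. Akr1d1 ranged from -0.08 to 0.13, the conjugating enzyme Baat from 0.02 to 0.19 and the bile acyl-CoA synthetase Slc27a5 from -0.12 to 0.02. Of the 7 synthesis genes outside the 4 hydroxylases, none was as low at the pericentral end as Cyp39a1 (-1.33 to -1.07) in any library.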
